A study of Homo sapiens with 12 samples.

Results

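The transcripts of 10 genes of the spindle assembly checkpoint were followed: BUB1, BUB1B, BUB3, MAD1L1, MAD2L1, MAD2L2, TTK, CDC20, ZWINT and KNL1. The genes were taken by name for their part in the checkpoint, and all 10 of the 10 names were found among 63568 gene identifiers. RNA was measured in 12 samples of MDA-MB-231, a human triple negative breast cancer cell line, which carried a green fluorescent protein and grew in droplets of Matrigel, a gel of basement membrane proteins. There were 6 conditions with 2 samples each. Cells without drug were taken on day 2 (C1) and on day 4 (C2), and cells given Paclitaxel on day 2 at 0.0005, 0.005, 0.05 or 0.5 μM were taken on day 4. Day 2 for the drug is the day the sample labels give; the procedure the study describes for imaging gives a later day, after these samples were taken. The study used Paclitaxel, which binds microtubules, to ask how cells move in a gel, and the comparisons below ask how checkpoint transcripts stood under the same doses. All samples come from 1 line. The samples of a condition are described as biological replicates, and the sources used here do not say how the cultures were kept apart, so the p-values measure the spread between these samples.

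The spindle assembly checkpoint delays anaphase until each chromosome is held by microtubules. At a kinetochore without microtubules, the kinase TTK marks the scaffold KNL1, BUB3 brings BUB1 and BUB1B to it, ZWINT links KNL1 to the proteins that recruit MAD1L1, and MAD1L1 turns MAD2L1 into the form that binds CDC20. The product, the mitotic checkpoint complex of MAD2L1, BUB1B, BUB3 and CDC20, holds back the anaphase promoting complex (APC/C), which otherwise marks cyclin B and securin for destruction. Most of these genes are transcribed mainly in G2 and M phase, and drugs that act on microtubules are known to keep the checkpoint active. MAD2L2 shares a protein fold with MAD2L1 but is known mainly from DNA repair and from its binding to FZR1, another activator of the APC/C.

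Promoters of cell cycle genes often hold a CHR element (searched as TTTGAA or TTCGAA), which the DREAM and MYB-MuvB complexes use, a CCAAT box (CCAAT), bound by NF-Y, or an E2F motif (searched as TTCCCGC and as TTCGCGC, and likewise as TTGCCGC and as TTGGCGC). Promoter windows of 300 bases, 250 before and 50 after the start site, were given by RefSeq on GRCh38.p14 for 7 of the members. BUB3, TTK and KNL1 had no entry. The 7 sequences below are shown because 8 of the members were highest on day 2 and several moved together across samples. MAD1L1 and MAD2L2, which were highest at 0.0005 μM, are printed last, MAD2L2 with the 1 of its 2 windows that held a motif. They are printed in the direction of transcription, and capitals mark the motifs on either strand.
BUB1 promoter: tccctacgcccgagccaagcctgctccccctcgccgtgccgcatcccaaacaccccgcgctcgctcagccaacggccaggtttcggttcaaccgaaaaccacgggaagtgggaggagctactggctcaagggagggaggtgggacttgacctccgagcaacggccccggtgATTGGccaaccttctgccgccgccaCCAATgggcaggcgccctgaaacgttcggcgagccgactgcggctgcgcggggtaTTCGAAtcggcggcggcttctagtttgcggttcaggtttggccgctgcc
BUB1B promoter: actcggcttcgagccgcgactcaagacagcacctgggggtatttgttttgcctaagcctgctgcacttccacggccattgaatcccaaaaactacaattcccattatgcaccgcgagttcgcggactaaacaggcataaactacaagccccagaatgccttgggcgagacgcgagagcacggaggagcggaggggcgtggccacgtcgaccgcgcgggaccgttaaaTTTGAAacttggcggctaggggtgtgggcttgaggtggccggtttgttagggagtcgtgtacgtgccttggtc
MAD2L1 promoter: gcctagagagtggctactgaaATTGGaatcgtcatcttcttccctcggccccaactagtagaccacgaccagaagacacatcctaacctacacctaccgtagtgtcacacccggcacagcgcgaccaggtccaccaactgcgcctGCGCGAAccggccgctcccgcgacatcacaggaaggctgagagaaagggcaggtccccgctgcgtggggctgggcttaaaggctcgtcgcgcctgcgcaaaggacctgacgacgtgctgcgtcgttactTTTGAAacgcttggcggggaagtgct
CDC20 promoter: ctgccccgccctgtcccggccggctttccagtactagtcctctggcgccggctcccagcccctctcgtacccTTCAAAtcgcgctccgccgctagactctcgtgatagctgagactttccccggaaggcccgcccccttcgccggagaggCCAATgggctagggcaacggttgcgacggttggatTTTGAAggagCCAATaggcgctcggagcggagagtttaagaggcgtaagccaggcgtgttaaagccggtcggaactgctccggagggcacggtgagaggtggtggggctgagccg
ZWINT promoter: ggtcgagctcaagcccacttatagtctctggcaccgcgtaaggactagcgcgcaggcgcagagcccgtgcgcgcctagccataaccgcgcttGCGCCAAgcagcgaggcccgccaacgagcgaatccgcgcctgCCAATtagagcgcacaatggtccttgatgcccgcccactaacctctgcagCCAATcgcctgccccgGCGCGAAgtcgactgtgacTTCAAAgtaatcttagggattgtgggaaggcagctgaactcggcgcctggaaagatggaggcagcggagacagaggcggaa
MAD1L1 promoter: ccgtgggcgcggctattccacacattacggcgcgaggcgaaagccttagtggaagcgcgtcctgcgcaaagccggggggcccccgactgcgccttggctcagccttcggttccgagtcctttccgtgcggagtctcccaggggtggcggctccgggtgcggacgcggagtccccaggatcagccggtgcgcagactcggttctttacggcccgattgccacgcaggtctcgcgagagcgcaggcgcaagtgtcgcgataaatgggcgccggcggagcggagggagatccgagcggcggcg
MAD2L2 promoter: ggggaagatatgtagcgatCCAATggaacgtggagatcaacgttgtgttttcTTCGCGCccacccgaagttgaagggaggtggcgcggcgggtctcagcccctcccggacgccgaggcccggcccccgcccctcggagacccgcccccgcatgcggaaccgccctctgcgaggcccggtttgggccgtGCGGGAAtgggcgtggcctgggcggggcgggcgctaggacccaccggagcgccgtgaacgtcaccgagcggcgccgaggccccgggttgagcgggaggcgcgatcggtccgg
These windows lie at chr2:110678014-110678313 (minus strand), chr15:40160819-40161118 (plus strand), chr4:120066799-120067098 (minus strand), chr1:43358731-43359030 (plus strand), chr10:56361210-56361509 (minus strand), chr7:2232896-2233195 (minus strand) and chr1:11681099-11681398 (minus strand) on GRCh38.p14. A CHR was found in 5 of the 7 members with a window, namely BUB1, BUB1B, MAD2L1, CDC20 and ZWINT, against 16.4% of all 35116 promoter windows. A CCAAT box was found in 5 of the 7 members, against 34.6% of all windows, and an E2F motif in 3 of the 7, MAD2L1, MAD2L2 and ZWINT, against 13.0%. The CDC20 window held 2 CHR matches and 2 CCAAT boxes, whereas the BUB1B window held a CHR only, with its first base at -23 from the start site. MAD1L1 held none of the searched letters, and the printed MAD2L2 window held 1 CCAAT box and 2 E2F motifs. MAD2L2 and ZWINT have 2 windows each, and a gene was counted once if any of its windows held the motif. The shares over all promoters count windows instead. By window, 6 of 9 member windows held a CHR, 6 of 9 a CCAAT box and 4 of 9 an E2F motif. A match is a description of the letters and not evidence of binding.

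On GRCh37, the build used for the counts, all members are annotated as protein-coding genes. The annotation places BUB1 at chr2:111395105-111435640 (minus strand), BUB1B at chr15:40453224-40513324 (plus strand), BUB3 at chr10:124913918-124929983 (plus strand), MAD1L1 at chr7:1855429-2272878 (minus strand) and MAD2L1 at chr4:120976778-120988013 (minus strand). It places MAD2L2 at chr1:11718975-11751868 (minus strand), TTK at chr6:80713604-80752244 (plus strand), CDC20 at chr1:43824652-43828874 (plus strand), ZWINT at chr10:58116988-58121034 (minus strand) and KNL1 at chr15:40886218-40956540 (plus strand). BUB1B shares 5.4% of its exon bases with PAK6 on the same strand, and PAK6 had 490 counts over the 12 samples beside 48670 for BUB1B.

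Totals ran from 38380629 to 79169121 counts, and the members had between 837 and 15675 counts in a sample, so counting error was small beside the spread between samples. The 2 untreated day 2 libraries stood apart from each other. The chi-square per degree of freedom between the replicates was 254.3 there and 7.07 to 42.5 in the other conditions, and the median absolute log2 difference over 11091 genes was 0.417 on day 2 and 0.161 in C2. The difference went with GC content, with a Pearson correlation of 0.538 across these genes, which are not independent. The deviation of genes of high GC content minus that of genes of low GC content was 0.34 on the log2 scale in C1 replicate 1 and -0.40 in C1 replicate 2, and the other 10 samples ran from -0.17 to 0.24. Among the members the sign of the difference went with GC content, but its size did not follow the order of GC content (0.08 for MAD2L2 and 0.76 for CDC20). CDC20 (57.9% GC), MAD1L1 (62.6%) and MAD2L2 (58.9%) were higher in C1 replicate 1, and the other 7 members, with 38.1% to 49.1% GC, were higher in C1 replicate 2. Since all 12 samples shared an estimate of the spread, results are also given with both day 2 libraries left out, a choice made after seeing the data.

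**Figure D1:**
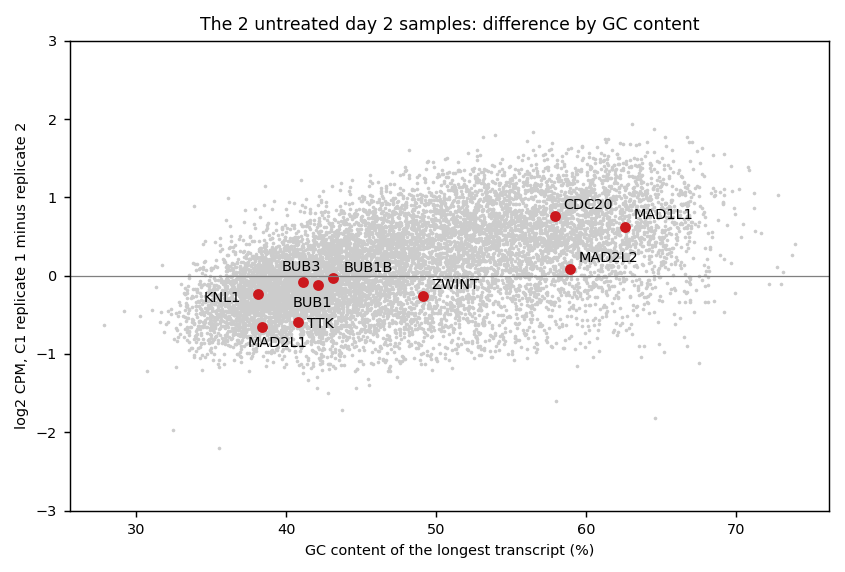
Log2 difference in CPM (reads scaled to a common library size) between the 2 untreated day 2 samples (C1 replicate 1 minus replicate 2, vertical axis) against the GC content of the longest transcript in percent (horizontal axis). Grey points are 11091 genes and red points the 10 members; CDC20 (0.76), MAD1L1 (0.63) and MAD2L2 (0.08) lie above zero and the other 7 members below it.

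ZWINT was the member that moved most across conditions. Over the 6 conditions the ratio of the highest to the lowest mean was 2.396 for ZWINT and ran from 1.19 for MAD2L2 to 1.82 for BUB1B in the others. The highest mean was that of the untreated day 2 samples for 8 members and that of 0.0005 μM for MAD1L1 and MAD2L2. At the 3 lower doses ZWINT and KNL1 stood below the untreated day 4 samples, and at 0.5 μM most members stood at or above them. In bulk RNA, fewer dividing cells and less RNA per dividing cell cannot be told apart.

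**Figure D2:**
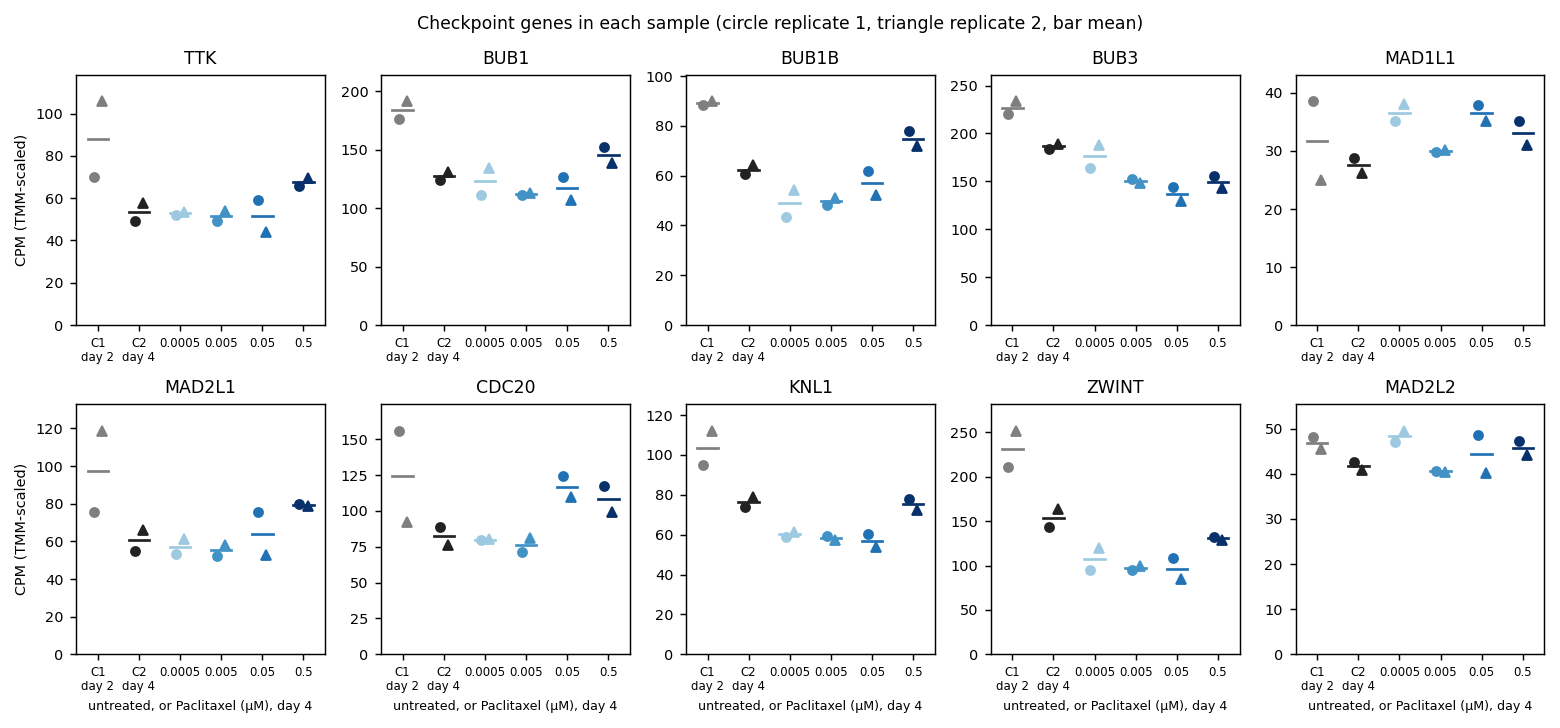
CPM of each member (vertical axis, from 0) in the 12 samples, by condition (horizontal axis: untreated C1 and C2, then Paclitaxel in μM). Circles are replicate 1, triangles replicate 2 and bars the mean; ZWINT lies at 85.0 to 133 CPM in the 8 treated samples and at 144 to 252 CPM in the 4 untreated samples.

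Each dose was set against C2 with the quasi-likelihood test of edgeR. Adjustment by Benjamini-Hochberg ran over 25249 genes, and "called" means an adjusted p under 0.05. The 4 comparisons share the C2 samples. At 0.0005 μM none of the 10 members was called, with 4 at an unadjusted p under 0.05 (17% of all genes) and 0 called by DESeq2, and 2.34% of all tested genes were called by edgeR and 4.65% by DESeq2. At 0.005 μM none was called, with 4 at an unadjusted p under 0.05 (18.7% of all genes) and 1 (ZWINT) called by DESeq2, and the background was 3.28% by edgeR and 5.39% by DESeq2. At 0.05 μM ZWINT was called lower and no other member was called, against 8.32% of all genes, 5 had an unadjusted p under 0.05 (23.7%), and DESeq2 called ZWINT, BUB3 and KNL1, against 10.6%. At 0.5 μM none was called, with 1 at an unadjusted p under 0.05 (22.9% of all genes) and 0 called by DESeq2, against 6.32% of all genes by edgeR and 9.55% of 24269 genes by DESeq2. The median log2 fold change of the members was -0.07, -0.16, -0.09 and 0.23 with rising dose, beside -0.04, -0.11, -0.11 and -0.10 for the 12245 genes with a mean of at least 5 CPM.

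With both day 2 libraries left out, 2, 2, 5 and 1 members were called with rising dose, where 10.3%, 12.7%, 19.2% and 20% of all genes were. ZWINT was then lower at 0.0005 μM (log2 fold change -0.51, edgeR adjusted p = 0.0257), 0.005 μM (-0.64, adjusted p = 0.0073) and 0.05 μM (-0.65, adjusted p = 0.00361). KNL1 was lower at 0.005 μM (-0.37, adjusted p = 0.0293) and at 0.05 μM (-0.40, adjusted p = 0.0128), and BUB3 at 0.05 μM (-0.43, adjusted p = 0.0148). MAD1L1 was higher at 0.0005 μM (0.42, adjusted p = 0.0214) and 0.05 μM (0.43, adjusted p = 0.0111), and CDC20 at 0.05 μM (0.52, adjusted p = 0.00622) and 0.5 μM (0.39, adjusted p = 0.0300). These log2 fold changes differ little from those of all 12 samples, and the number of calls among members and among all genes rose together.

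**Figure D3:**
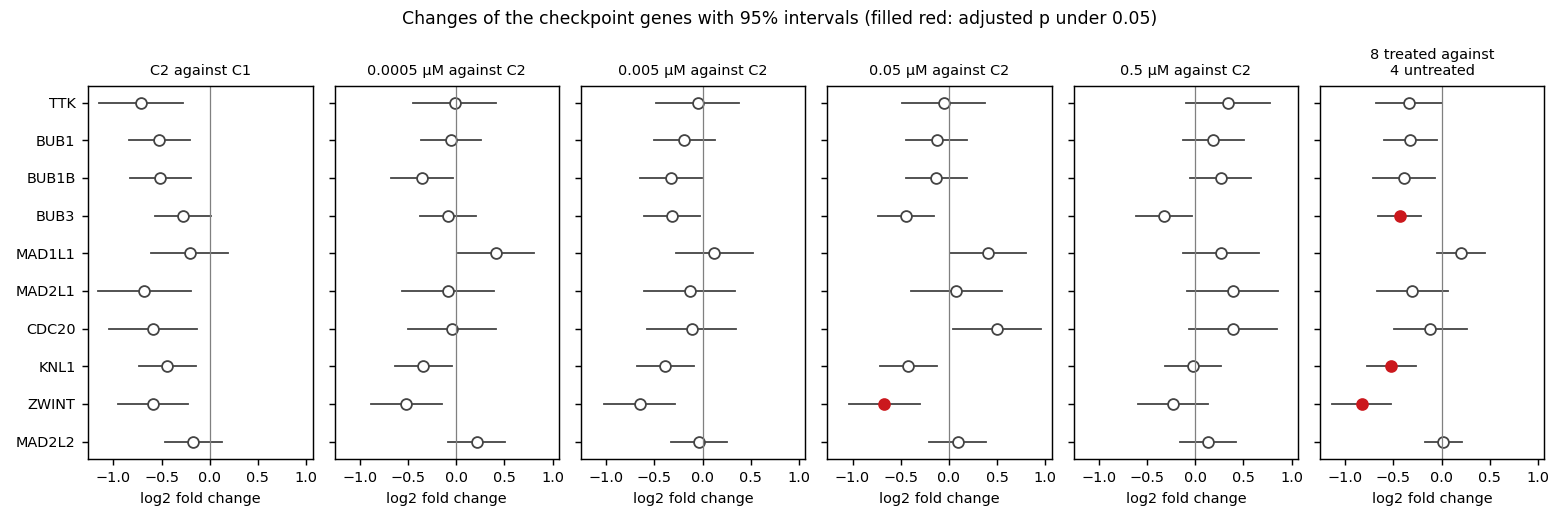
Log2 fold change (horizontal axis) of each member in 6 comparisons, with 95% intervals; filled red points have an edgeR adjusted p under 0.05. ZWINT is called at 0.05 μM (-0.67), and ZWINT, KNL1 and BUB3 are called in the comparison of the 8 treated with the 4 untreated samples.

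Of the kinetochore platform, ZWINT had the widest range of the members over the 6 conditions and KNL1 the third widest. C1 had the highest mean of both, and the ratio of highest to lowest mean was 1.818 for KNL1 beside 1.822 for BUB1B. ZWINT, which binds KNL1 and is needed for the RZZ complex (ROD, ZW10 and Zwilch) at kinetochores, had 211 and 252 CPM in C1 and 144 and 163 CPM in C2. With drug it had 94.6 and 120.1 CPM at 0.0005 μM, 95.3 and 100.03 CPM at 0.005 μM, 108 and 85.0 CPM at 0.05 μM, and 133 and 129 CPM at 0.5 μM. All 8 treated samples lay below all 4 untreated samples, a separation that 5.77% of all tested genes showed and no other member did. ZWINT was lower at 0.05 μM than in C2 by a log2 fold change of -0.67 (SE 0.17, edgeR adjusted p = 0.0310), and at 0.5 μM the value was -0.23 with a 95% interval from -0.59 to 0.14. The call at 0.05 μM was lost without either C2 library (log2 fold changes of -0.76 and -0.58), without either 0.005 μM library (-0.67 and -0.68), without 0.05 μM replicate 2 (-0.53) and without 0.5 μM replicate 2 (-0.67), with adjusted p-values from 0.0516 to 0.177.

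KNL1, the scaffold that carries the docking motifs for BUB3, had 95.03 and 112 CPM in C1, 74.0 and 78.8 CPM in C2 and 59.0 and 61.6 CPM at 0.0005 μM. At 0.005 μM it had 59.5 and 57.4 CPM, at 0.05 μM 60.4 and 53.6 CPM, and at 0.5 μM 78.0 and 72.4 CPM. The 6 samples of the 3 lower doses lay below both C2 samples, while those of 0.5 μM overlapped with C2. Against C2 the log2 values were -0.34, -0.39, -0.42 and -0.02 with rising dose (edgeR adjusted p = 0.224, 0.148, 0.0786 and 0.941), so KNL1 passed the test at none of them in the fit of all 12 samples. With offsets for GC content and length the KNL1 values were -0.24, -0.29, -0.22 and 0.07, also not called (edgeR adjusted p = 0.195, 0.113, 0.193 and 0.712). Across the 12 samples KNL1 and ZWINT were the pair of members with the highest correlation of log2 CPM (Pearson r of 0.98), a description over samples that share conditions.

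The kinases at the kinetochore, TTK and BUB1, passed the test at no dose by edgeR or DESeq2, and neither had an unadjusted p under 0.05 by edgeR. TTK, the kinase that starts checkpoint signalling, had 70.0 and 106 CPM in C1, 49.0 and 57.9 CPM in C2, and 52.1 and 53.6 CPM at 0.0005 μM. It had 49.3 and 53.9 CPM at 0.005 μM, 59.1 and 43.8 CPM at 0.05 μM, and 65.8 and 69.4 CPM at 0.5 μM. Both samples of 0.5 μM lay above both C2 samples, and the log2 fold change was 0.34 with a 95% interval from -0.09 to 0.77 (edgeR adjusted p = 0.335). BUB1, which marks centromeric histone H2A and serves as a landing site for MAD1L1, had 176 and 191 CPM in C1, 124 and 131 CPM in C2, and 112 and 135 CPM at 0.0005 μM. BUB1 had 111 and 113 CPM at 0.005 μM, 127 and 107 CPM at 0.05 μM, and 152 and 139 CPM at 0.5 μM. Its samples at 0.005 μM lay below C2 and those at 0.5 μM above it, and the log2 fold changes of -0.19 and 0.19 were not called by edgeR (adjusted p = 0.510 and 0.466).

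None of the 4 members of the mitotic checkpoint complex was called by edgeR against C2 at any dose in the fit of all 12 samples, and DESeq2 called BUB3 at 0.05 μM. The unadjusted p was under 0.05 for BUB1B at 0.0005 and 0.005 μM, BUB3 at the 3 higher doses, CDC20 at 0.05 μM and MAD2L1 at none. BUB1B, the BUBR1 protein that blocks substrate entry to the APC/C, had 88.2 and 89.8 CPM in C1, 60.7 and 64.1 CPM in C2 and 43.5 and 54.2 CPM at 0.0005 μM. It had 48.3 and 51.1 CPM at 0.005 μM, 62.0 and 52.0 CPM at 0.05 μM, and 77.9 and 72.0 CPM at 0.5 μM. The samples at the lower 2 doses lay below C2 and those at 0.5 μM above it. BUB1B rose with dose: over the 8 treated samples its slope was 0.21 on the log2 scale per 10-fold dose (SE 0.04, edgeR adjusted p = 0.0242). The call of the slope was lost without 0.0005 μM replicate 1 (0.19), 0.005 μM replicate 2 (0.20), 0.5 μM replicate 1 (0.17) or 0.5 μM replicate 2 (0.20), with adjusted p-values from 0.0501 to 0.217.

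BUB3, the small adaptor protein that carries BUB1 and BUB1B, had log2 fold changes below zero at all 4 doses. It had 220.2 and 233 CPM in C1, 184 and 189 CPM in C2 and 164 and 188 CPM at 0.0005 μM. BUB3 had 152 and 148 CPM at 0.005 μM, 144 and 129 CPM at 0.05 μM, and 156 and 143 CPM at 0.5 μM. The 6 samples of the 3 higher doses lay below all 4 untreated samples, and those of the lowest dose overlapped with C2. Against C2 its log2 values were -0.08, -0.31, -0.45 and -0.32 with rising dose, and the adjusted p closest to the threshold was 0.0600, at 0.05 μM. With offsets for GC content and length the BUB3 values were -0.02, -0.23, -0.30 and -0.25, also not called (edgeR adjusted p = 0.926, 0.206, 0.0859 and 0.148).

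MAD2L1, the MAD2 protein that closes around CDC20, had 75.5 and 119 CPM in C1, 55.1 and 66.3 CPM in C2 and 53.2 and 61.0 CPM at 0.0005 μM. MAD2L1 had 52.3 and 58.3 CPM at 0.005 μM, 75.4 and 52.7 CPM at 0.05 μM, and 79.8 and 78.9 CPM at 0.5 μM. Both samples of 0.5 μM were above both C2 samples, and the log2 fold change was 0.39 (95% interval -0.09 to 0.86, edgeR adjusted p = 0.319). The 2 samples at 0.05 μM differed by 0.52 on the log2 scale, more than any other member did there.

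CDC20, the APC/C activator that the checkpoint captures, had 156 and 92.1 CPM in C1, 88.6 and 76.5 CPM in C2 and 79.4 and 80.4 CPM at 0.0005 μM. It had 71.5 and 81.1 CPM at 0.005 μM, 124 and 109.7 CPM at 0.05 μM, and 117 and 99.3 CPM at 0.5 μM. The 4 samples of the 2 higher doses lay above both C2 samples, and the samples of the 2 lower doses overlapped with C2. The log2 fold change was 0.50 at 0.05 μM (95% interval 0.04 to 0.96, edgeR adjusted p = 0.171) and 0.39 at 0.5 μM (-0.07 to 0.85, adjusted p = 0.296).

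MAD1L1, which holds MAD2L1 at kinetochores, had 38.5 and 24.97 CPM in C1, 28.8 and 26.3 CPM in C2 and 35.1 and 38.2 CPM at 0.0005 μM. MAD1L1 had 29.8 and 30.2 CPM at 0.005 μM, 37.9 and 35.2 CPM at 0.05 μM, and 35.2 and 31.1 CPM at 0.5 μM. It was the only member whose 8 treated samples all lay above both C2 samples, which 12.1% of all tested genes showed, while its C1 samples lay on both sides of them. The log2 fold changes were 0.41, 0.12, 0.41 and 0.27 with rising dose, and none was called in the fit of all samples (edgeR adjusted p = 0.276, 0.742, 0.198 and 0.409). With offsets for GC content and length the values were 0.58, 0.45 and 0.49 at 0.0005, 0.05 and 0.5 μM and passed the test (adjusted p = 0.0232, 0.0392 and 0.0296), where 4.9%, 11.5% and 10.2% of all genes did. Of the MAD1L1 exon bases, 43.2% are shared with another annotated gene on the same strand that has no symbol. That gene is not among the counted identifiers, and the part of the overlap in the MAD1L1 counts was not tested. MAD2L2 had the narrowest range of the members, with 40.1 to 49.6 CPM over all samples and log2 fold changes between -0.04 and 0.21 at the 4 doses, and 16.1% of its exon bases overlap FBXO6 on the other strand.

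Counting only whether samples overlapped, 7 of 10 members had both samples of 0.5 μM above both C2 samples, namely BUB1, BUB1B, MAD1L1, MAD2L1, MAD2L2, TTK and CDC20, where 31.7% of all tested genes did. BUB3 and ZWINT lay below C2 at this dose, where 27.3% of all genes did. At 0.005 μM, 6 members lay below C2 (background 29.3%) and 1 above it (32.9%). At 0.0005 μM, 3 lay below (25.9%) and 2 above (27.1%), and at 0.05 μM 3 lay below (26.9%) and 2 above (26.1%). With 2 samples on each side, a permutation of labels for 1 gene, enumerated exactly, cannot give a p below 0.333.

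The trend over dose was tested in the 8 treated samples alone, which the untreated samples cannot affect. Of the 10 members 1, BUB1B, was called with a slope above zero and none below, where 3.15% of 25057 genes were called either way and 1.04% upwards. DESeq2 called 2 members, BUB1B and CDC20, and 8.33% of the 20353 genes to which it gave an adjusted p. With offsets for GC content and length edgeR called 3, BUB1B, CDC20 (slope 0.21) and MAD2L1 (0.17), and 5.4% of all genes. In the fit without offsets 5 members had an unadjusted p under 0.05, where 18.4% of all genes did. The slope per 10-fold dose was 0.19 for CDC20 (95% interval 0.08 to 0.31, edgeR adjusted p = 0.0657), 0.16 for MAD2L1 (0.06 to 0.27, adjusted p = 0.0892) and 0.11 for TTK (0.00 to 0.21, adjusted p = 0.246). BUB3 had a slope of -0.08 (-0.18 to 0.01, adjusted p = 0.314), and 7 of the 10 slopes were above zero. Between the ends of the dose range, 0.5 against 0.0005 μM, no member was called by edgeR and 2 had an unadjusted p under 0.05 (14.7% of all genes), with 1 (BUB1B) called by DESeq2 and a background of 0.412% by edgeR and 2.88% of 20843 genes by DESeq2. BUB1B had a log2 fold change of 0.62 there (SE 0.15, edgeR adjusted p = 0.108). Without both day 2 libraries BUB1B (0.61, adjusted p = 0.0103) and CDC20 (0.43, adjusted p = 0.0451) passed the test, against 5.75% of all genes.

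The untreated samples were compared between days. From day 2 to day 4 all 10 log2 fold changes were below zero, from -0.17 for MAD2L2 to -0.72 for TTK, with a median of -0.52 beside -0.09 for genes of at least 5 CPM. None was called by edgeR, 7 had an unadjusted p under 0.05 (10% of all genes), and DESeq2 called 1 (BUB1), where 0.325% of all genes were called by edgeR and 1.33% of 20353 genes by DESeq2. In 9 of the 10 members both C2 samples lay below both C1 samples, where 15.3% of all genes did, and MAD1L1 was the exception. The value of MAD1L1 had the same sign in 19 of 20 alternatives and reached 0.14 in the other. The estimate depended on the C1 library used: CDC20 was at 156 CPM in replicate 1 and 92.1 CPM in replicate 2, and TTK at 70.0 and 106 CPM. Without C1 replicate 1, edgeR called 6 members and 10% of all genes, and without C1 replicate 2 it called 2 members and 7.03% of all genes.

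The study compared treated with untreated conditions, and its sources do not say whether the untreated days were pooled. With the 8 treated samples against the 4 untreated samples of both days, 3 of 10 members were called, ZWINT, KNL1 and BUB3, all lower, where 24.4% of all genes were called and 11.3% were called lower. DESeq2 called the same 3 members and 28% of all genes. With offsets for GC content and length these 3 were called lower and MAD1L1 higher (0.34, edgeR adjusted p = 0.0158), and 26.2% of all genes were called. ZWINT was lower by a log2 fold change of -0.83 (SE 0.15, edgeR adjusted p = 0.000741), KNL1 by -0.52 (SE 0.12, adjusted p = 0.00521) and BUB3 by -0.43 (SE 0.11, adjusted p = 0.00728). Against the C2 samples alone, ZWINT remained lower (-0.50, adjusted p = 0.0295), KNL1 and BUB3 did not pass the test (-0.28, adjusted p = 0.137, and -0.28, adjusted p = 0.130), and 13.6% of all genes were called. The median over the members was -0.33 with both untreated days and 0.02 with C2 alone.

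The level of other members relative to CDC20 was described by the log2 ratio of CPM within a sample, which the scaling of the sample does not affect. BUB3 to CDC20 was 1.18 ± 0.18 (SD, n = 2) in C2, 1.14 ± 0.12 at 0.0005 μM and 0.98 ± 0.16 at 0.005 μM. It was 0.23 ± 0.01 at 0.05 μM and 0.47 ± 0.08 at 0.5 μM, so the 4 samples of the higher doses lay below all others of day 4. BUB1B to CDC20 was -0.40 ± 0.21 in C2, and -0.72 ± 0.21 and -0.61 ± 0.07 at the 2 lower doses. It was -1.04 ± 0.05 at 0.05 μM and -0.53 ± 0.09 at 0.5 μM. BUB1 to CDC20 was 0.63 ± 0.20 in C2, and 0.62 ± 0.18 and 0.56 ± 0.11 at the 2 lower doses. The values at 0.05 and 0.5 μM were 0.00 ± 0.04 and 0.43 ± 0.08. On day 4 MAD2L1 and TTK were also lowest against CDC20 at 0.05 μM (-0.89 ± 0.24 and -1.20 ± 0.18, beside -0.45 ± 0.34 and -0.63 ± 0.32 in C2). MAD1L1 to CDC20 was lowest on day 2, in C1 (-1.95 ± 0.09). Its lowest day 4 mean was -1.70 ± 0.04 at 0.5 μM, beside -1.68 ± 0.05 at 0.05 μM. GC content moved beside these ratios: CDC20 has 57.9% GC and BUB3, BUB1B, BUB1, MAD2L1 and TTK have 38.4% to 43.1%. The deviation of genes of high minus low GC content was 0.12 and 0.24 at 0.05 μM. With offsets for GC content and length, the log2 fold change at 0.05 μM against C2 minus that of CDC20 was -0.77 instead of -0.95 for BUB3, -0.51 instead of -0.63 for BUB1B, -0.47 instead of -0.63 for BUB1, -0.41 instead of -0.56 for TTK and -0.24 instead of -0.42 for MAD2L1. These ratios carry no test, and transcript ratios do not give protein ratios.

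**Figure D4:**
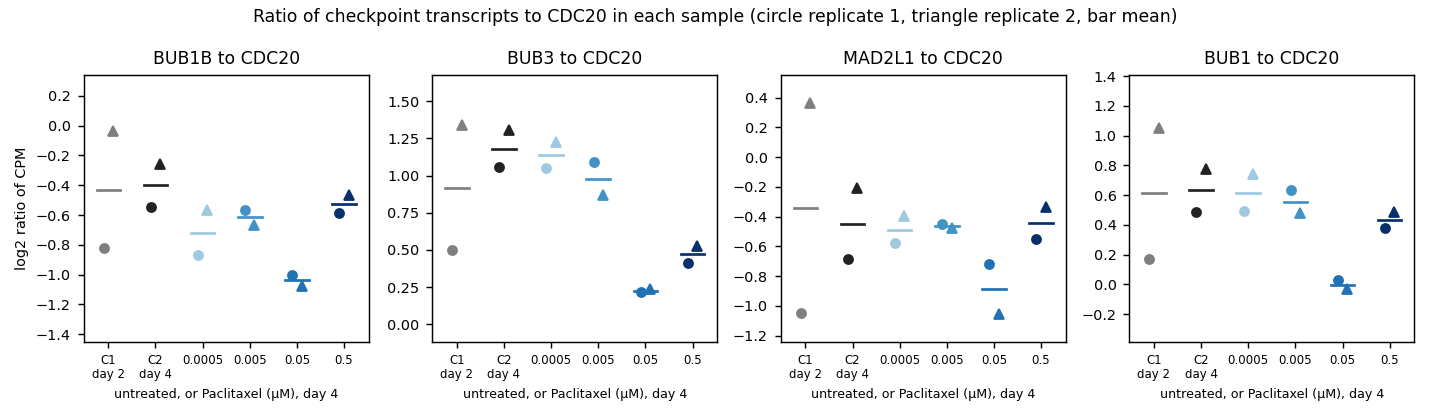
Log2 ratio of the CPM of BUB1B, BUB3, MAD2L1 and BUB1 to that of CDC20 (vertical axis, equal span in each panel) in the 12 samples by condition. Circles are replicate 1, triangles replicate 2 and bars the mean; each ratio has its lowest day 4 mean at 0.05 μM, and the 2 day 2 samples lie far apart.

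Levels of different genes were compared per length, as RPKM (CPM divided by the exon length in kilobases). In C2, ZWINT stood highest at 64.6 ± 5.89 RPKM (SD, n = 2), followed by CDC20 at 41.0 ± 4.24 RPKM, BUB3 at 22.8 ± 0.43 RPKM and BUB1 at 20.3 ± 0.78 RPKM. BUB1B had 14.0 ± 0.55 RPKM, TTK 11.7 ± 1.37 RPKM and MAD2L1 11 ± 1.44 RPKM, and the last 2 overlapped. MAD2L2 had 7.68 ± 0.22 RPKM, KNL1 7.45 ± 0.33 RPKM, which overlapped with MAD2L2, and MAD1L1 was lowest at 3.96 ± 0.26 RPKM. At 0.05 μM CDC20, at 58.1 ± 5.13 RPKM, stood above ZWINT, at 40.6 ± 6.89 RPKM, without overlap. At 0.5 μM ZWINT, with 55.1 ± 1.004 RPKM, and CDC20, with 53.8 ± 6.26 RPKM, overlapped.

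Other genes of mitosis and of DNA replication were read from hand-made lists, compiled with earlier results of these data known. Counts per list are thus a description. At 0.5 μM against C2, AURKA, the spindle pole kinase, rose by a log2 fold change of 0.75 (edgeR adjusted p = 0.0247), and CCNB1, cyclin B1, the substrate that the checkpoint protects, by 0.84 (adjusted p = 0.0279). CENPA, the centromeric histone, rose by 0.61 (adjusted p = 0.0274). CCNB1 had 146 and 161 CPM in C2 and 290.3 and 261 CPM at 0.5 μM, and AURKA had 89.5 and 93.5 CPM in C2 and 161 and 145 CPM at 0.5 μM, without overlap in either gene. Of the 7 APC/C targets and cohesion genes 1 was called at 0.5 μM (CCNB1, higher), where 6.32% of all genes were called, with a median of 0.28 beside 0.23 for the members. AURKA was the 1 called gene of 8 passenger complex and mitotic kinase genes, of which 4 were above zero and 4 below, with a median of -0.19. INCENP had -0.66 (adjusted p = 0.290), CDK1 -0.64 (adjusted p = 0.0917) and AURKB -0.49 (adjusted p = 0.168). CENPA was the 1 called gene of 10 centromere and corona genes, 5 above zero and 5 below, with a median of -0.01.

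Of 12 kinetochore scaffold and RZZ genes, 6 were above zero and 6 below at 0.5 μM, with a median of -0.02. DSN1 of the MIS12 complex was the 1 called there, lower (-0.57, edgeR adjusted p = 0.0470), and NDC80 had 0.48 (adjusted p = 0.163) and NUF2 0.33 (adjusted p = 0.363). At the 3 lower doses 12, 12 and 11 of these 12 genes were below zero with rising dose, with medians of -0.22, -0.23 and -0.22. Of them 1, 1 and 3 were called lower, where 2.34%, 3.28% and 8.32% of all genes were called either way. SPC24 of the NDC80 complex was lower at the 3 lower doses (-1.05, -0.92 and -0.94, adjusted p = 0.0144, 0.0249 and 0.0128) and had -0.68 at 0.5 μM (adjusted p = 0.0590). Of 10 centromere and corona genes, CENPI was lower at the same 3 doses (-0.62, -0.62 and -0.69, adjusted p = 0.0304, 0.0270 and 0.00959) and had -0.42 at 0.5 μM (adjusted p = 0.0837). Of 14 S phase genes, 1, 8, 8 and 6 were called lower with rising dose and none higher, where 2.34%, 3.28%, 8.32% and 6.32% of all genes were called either way, with medians of -0.53, -0.77, -0.72 and -0.63. At 0.5 μM these included MCM5 (-1.08, adjusted p = 0.0383) and CDC6 (-0.84, adjusted p = 0.0073), which load and form the replicative helicase, and GINS2 (-0.94, adjusted p = 0.0183) and GINS1 (-0.76, adjusted p = 0.0142) of the GINS complex. TOP2A, the topoisomerase of dividing cells, was lower at 0.5 μM (-0.58, adjusted p = 0.0496), whereas MKI67 had -0.16 (adjusted p = 0.739).

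**Figure D5:**
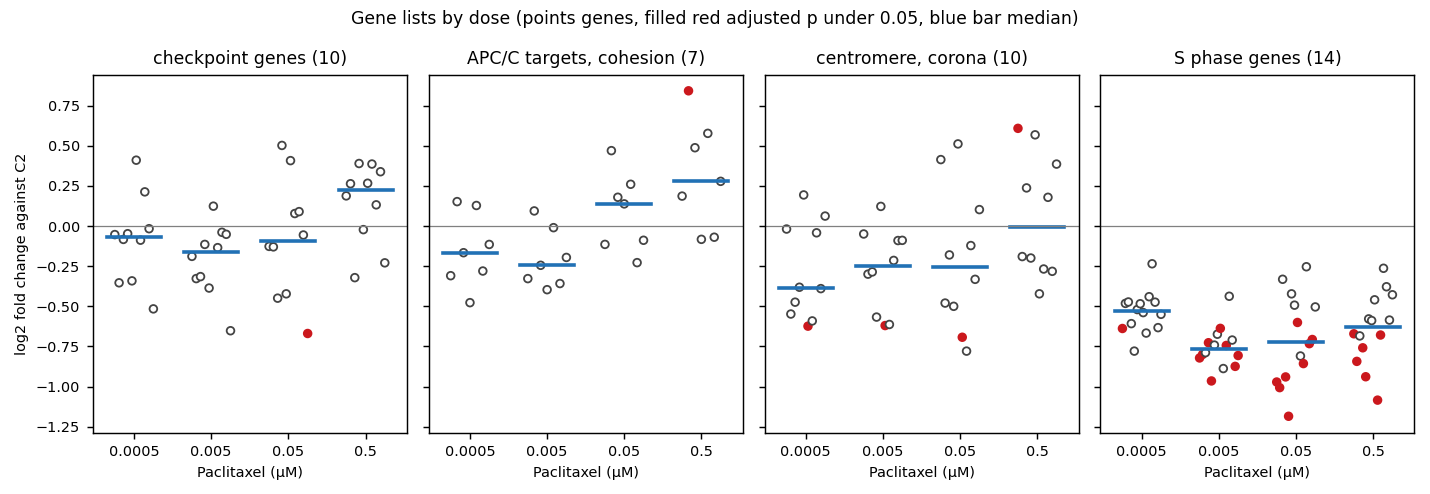
Log2 fold change against C2 (vertical axis) by Paclitaxel dose (horizontal axis) for the 10 members, 7 APC/C targets and cohesion genes, 10 centromere and corona genes and 14 S phase genes. Points are genes, filled red where the edgeR adjusted p is under 0.05, and blue bars are medians; the member median is -0.07, -0.16, -0.09 and 0.23 with rising dose and that of the S phase genes stays between -0.77 and -0.53.

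Slopes on dose were read for the same lists. Slopes above zero were called for 1.04% of all genes, 3 of 7 APC/C targets and cohesion genes, 3 of 12 kinetochore scaffold and RZZ genes, 3 of 8 passenger complex and mitotic kinase genes and 2 of 10 centromere and corona genes, and for none of the 14 S phase genes, of which 2 had an unadjusted p under 0.05. No test compared the lists with each other. Median slopes were 0.17, 0.09, 0.11, 0.09 and -0.02 in that order, beside 0.09 for the members and -0.02 for genes of at least 5 CPM. NUF2 (0.24, edgeR adjusted p = 0.0133) and CCNB2 (0.24, adjusted p = 0.0212) were among those called. No slope was called among 18 APC/C genes, 4 checkpoint silencing genes and 2 proliferation genes (MKI67 and TOP2A), with medians of 0.02, 0.10 and 0.02.

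The labelled cell type was checked by its markers. VIM, CD44, KRT8, KRT18 and EGFR stood between 110.1 and 1366 CPM in all samples, and ESR1, PGR and CDH1 at 0.46 CPM or less, while ERBB2 had 26.6 to 52.4 CPM. Of the markers of other cells, DCN, LUM, THY1, PTPRC and CDH5 were at 0.51 CPM or less, and COL1A1 and PDGFRB at 3.61 to 9.85 CPM. The summed level of the 5 fibroblast markers was 11.9 to 18.2 CPM in treated and 8.62 to 16.8 CPM in untreated samples, and that of the 2 blood and endothelium markers 0.33 to 0.74 and 0.03 to 0.43 CPM. With all treated set against all untreated samples, PTPRC was called higher (log2 fold change 1.43, edgeR adjusted p = 0.0409), and CDH5 (0.82), COL1A1 (0.37) and LUM (1.11) had an unadjusted p under 0.05 and were not called. Of the 5 markers of the line EGFR was called lower (-0.46, adjusted p = 0.0281), and CDH1 had 1.06 (adjusted p = 0.105). The part of these markers in the results was not tested.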

How the data were processed

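RNA of 12 samples was sequenced as paired-end reads. The authors trimmed reads (Trimmomatic 0.39, FastQC 0.11.9), aligned them to GRCh37 (hg19) with STAR 2.7.5, kept unique alignments and counted exonic reads per gene with Rsubread; the deposited values are these integer counts, not normalized or pooled, and a strand setting is not given in the sources used here. Single-sample columns were identical to the table in 12 of 12 cases. Symbols matched 55665 of 63568 identifiers.

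Members and gene lists were chosen with earlier results of these data known. From the counts, edgeR 4.0.16 in R 4.3.3 (TMM scaling, filterByExpr, robust quasi-likelihood test, two-sided, Benjamini-Hochberg over 25249 genes) fitted a model of 6 conditions to all 12 samples, with 6 residual degrees of freedom and a common biological coefficient of variation of 15.6%. The treated against untreated contrast and the slope on log10 of the dose, over 8 treated samples, had fits of their own. DESeq2 1.42.0 was an alternative, without the hypothesis weighting of the study. CPM used TMM library sizes, log2 CPM a prior count of 2, and RPKM the exon length of GENCODE v44lift37. Intervals are 95% from the fit. The procedures were tested on simulated data.

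All members are named. From each list of other pathway genes, names were drawn from those called in any comparison. At most the 4 with the largest absolute log2 fold change at 0.5 μM are named, or the largest 1 of the list if none was called. Also named are the 5 genes of at least 5 CPM most like the members' mean profile. The cell type markers are named outside this rule. Alternatives were other normalization, filters, tools, control samples, GC content and length offsets, a replicate block and leaving out each sample. Totals of 38380629 to 79169121 counts set the precision, and counting error is only part of the spread.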

Additional observations from a re-analysis of the deposited data

How the results depend on the processing

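The 10 members were recomputed under 1640 combinations of comparison, member and alternative; 1604 values had the sign of the reported one, 91 passed the threshold newly, 12 no longer passed and 0 passed in the opposite direction. Counts of called members that moved are given by comparison with the share of all genes called, in the order 0.0005, 0.005, 0.05 and 0.5 μM against C2. GC content and length offsets gave 2, 1, 2 and 1 members (4.9%, 5.62%, 11.5% and 10.2% of all genes), the mean of both untreated days as control 3, 5, 3 and 2 (8.26%, 13.5%, 17.1% and 14.4%), and the fit without the day 2 libraries, added after the data were seen, 2, 2, 5 and 1 (10.3%, 12.7%, 19.2% and 20%). The 4 samples of a comparison alone gave 2, 2 and 3 for the lower 3 doses (12%, 11% and 12.6%). DESeq2 gave 1 at 0.005 μM (5.39%), 3 at 0.05 μM (10.6%), 1 between untreated days (1.33%), 2 for the slope (8.33%) and 1 for 0.5 against 0.0005 μM (2.88%). No filter beyond 1 count gave 1 at 0.005 μM (3.9%), 2 between untreated days (0.797%) and 3 for the slope (3.03%). For the slope GC offsets gave 3 (5.4%). For 0.5 against 0.0005 μM, GC offsets gave 1 (1.51%), the 4 samples alone 3 (7.22%) and the fit without day 2 libraries 2 (5.75%). Treated against C2 only gave 1 (13.6%), and GC offsets gave 4 for treated against untreated (26.2%), with MAD1L1 higher. The cause was not tested.

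Leaving out each sample in turn gave 0 to 2 called members at 0.0005 μM (0.536% to 9.52% of all genes), 0 to 2 at 0.005 μM (0.316% to 12.4%), 0 to 5 at 0.05 μM (1.19% to 18.1%), 0 to 1 at 0.5 μM (0.48% to 18.8%), 0 to 6 between untreated days (0.175% to 10%), 3 to 6 for treated against untreated (15.6% to 26.4%), 0 to 2 for the slope (0.463% to 3.8%) and 0 to 1 for 0.5 against 0.0005 μM (0.0227% to 5.27%); a condition left with 1 sample is assumed to vary like the others. Leaving out either day 2 library gave the highest count at each dose. For treated against untreated 6 were called without C2 replicate 1 (17.9%), and 5 each without C2 replicate 2 (23.4%) and without 0.5 μM replicate 1 (21.8%). Deviations of samples with equal replicate numbers correlated between -0.600 and 0.682, with a median of 0.134 and 8 of 15 above 0.1. With 2 samples a condition, this check cannot decide whether equal numbers pair samples. The replicate block gave 0, 0, 1 and 0 called members at the 4 doses and 0 between untreated days. It gave 3 for treated against untreated, 1 for the slope and 0 for 0.5 against 0.0005 μM. Each of these counts was the same without the block.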

Other observations

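Genes that take the checkpoint complex apart and subunits of the APC/C were read in the same way. TRIP13, the ATPase that reopens MAD2L1 and so frees CDC20, had 34.9 and 35.7 CPM in C2 and 20.7 and 21.8 CPM at 0.0005 μM. TRIP13 was lower at 0.0005 μM (-0.73, edgeR adjusted p = 0.0126) and at 0.005 μM (-0.67, adjusted p = 0.0184), and at 0.5 μM its log2 fold change was -0.44 (adjusted p = 0.0715). It was the 1 called gene of 4 silencing genes at these 2 doses, where 2.34% and 3.28% of all genes were called. Of 18 APC/C genes 1 was called at 0.005 μM, FBXO5, an inhibitor of the APC/C in interphase (-0.53, adjusted p = 0.0421). FZR1, the other activator, had -0.79 at 0.5 μM (adjusted p = 0.0834), and UBE2C, the ubiquitin enzyme of the complex, -0.37 (adjusted p = 0.212). CDK1, the kinase that CCNB1 activates, was lower at 0.05 μM (-0.89, adjusted p = 0.0238), the dose at which CCNB1 had 0.47 (adjusted p = 0.165).

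The 5 genes whose log2 CPM over the 12 samples was most like the mean standardised profile of the members, among 11081 genes, were SNRNP40 (Pearson r of 0.97), PSPC1 (0.97), RHNO1 (0.96), BUD13 (0.96) and FAM72C (0.96). FAM72C has near-identical copies, so its reads are uncertain. The samples share conditions and libraries, and these values are a description.

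Among pairs of members, MAD2L1 and TTK had a Pearson r of 0.97 over the 12 samples and BUB1 and BUB1B 0.93, while BUB3 and CDC20 had 0.05 and KNL1 and MAD1L1 -0.40. The 2 day 2 samples take part in each of these values.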
